A study of Mus musculus with 6 samples.

Results

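Type I interferon-stimulated genes were followed in the aorta of mice deficient in endothelial nitric oxide synthase (eNOS), the enzyme with which endothelial cells produce nitric oxide, against the aorta of wild-type mice of matched age. The list held 37 genes chosen by name, 34 of which had a probe set annotated to that gene alone, among 22180 genes so annotated on the array. The brightest probe set stood for each gene, and 33 of the 34 passed a filter on dim signal (a mean of at least 4.38 log2 over all arrays, the 25th percentile of all probe sets), as did 18007 genes in all. Mx1 lay under the filter, and Oas1a, Dtx3l and Ifi44 were not analysed here. Total RNA from 3 eNOS-deficient samples (numbered 11, 15 and 19 in their titles) and 3 wild-type samples (2, 3 and 5) was hybridised to 1 Affymetrix array each. No treatment is named for either group, and the sources used here do not state the targeted allele, strain, sex or exact age. All values are log2 signals from robust multi-array averaging (RMA), a difference is eNOS-deficient minus wild type, and levels of different probe sets are not compared with each other.

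Type I interferons are cytokines that cells release when sensors detect viral or misplaced nucleic acid. They bind the receptor pair IFNAR1 and IFNAR2, whose kinases JAK1 and TYK2 pass the signal on to transcription factors. A complex that holds STAT2 and IRF9 then binds the interferon-stimulated response element (ISRE), a repeat of GAAA-like blocks in promoters, and so switches on the genes followed here. Many of them encode proteins that block viral replication, and others sense nucleic acid or raise and restrain the response itself. Endothelial cells, smooth muscle cells, fibroblasts and leukocytes of the vessel wall can all respond.

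The promoters of the list are shown first, because the ISRE is the sequence through which these genes are known to be induced. RefSeq windows (build GRCm38.p6) from 250 bases before to 50 after the transcription start were found for 26 of the 37 genes. The ISRE core was taken as a GAAA block, any 2 bases and a second GAAA block, and was searched on both strands. It stood in a window of 12 of the 26 genes (46.2%), beside 3.99% of the 27025 genes with a window. A longer form, which contains the core and goes on with CT, stood in 6 of the 26 (23.1%) and in 0.303% of all. The GAS core TTCNNNGAA, the element known from interferon gamma signalling, reads alike on both strands and stood in 5 of the 26 (19.2%) and in 9.55% of all. The core was found for Ddx58, Ifih1, Stat2, Ifit1, Ifit3, Rsad2, Oas1a, Oas3, Eif2ak2, Bst2, Isg15 and Trim30a. A match is a description of these letters in the reference genome and shows no binding in these aortas.

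Stretches around the cores, with 10 bases to each side, show how they are arranged. Capitals mark the cores, overlapping cores run together, and each line reads 5′ to 3′ on the strand of the gene. Ifit1 is at chr19:34640775-34640823 (plus strand), Ifit3 at chr19:34583363-34583426 (plus), Isg15 at chr4:156200865-156200906 (minus), Oas3 at chr5:120777715-120777744 (minus) and Bst2 at chr8:71537577-71537612 (minus).
Ifit1: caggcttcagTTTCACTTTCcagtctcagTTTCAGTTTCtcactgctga
Ifit3: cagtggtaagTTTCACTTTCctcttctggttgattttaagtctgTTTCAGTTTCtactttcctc
Isg15: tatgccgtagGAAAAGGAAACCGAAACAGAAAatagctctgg
Oas3: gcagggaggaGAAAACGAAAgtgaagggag
Bst2: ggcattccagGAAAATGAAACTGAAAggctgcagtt
Isg15 held 3 overlapping cores, 78, 72 and 66 bases before its start, and Bst2 held 2 overlapping ones at 130 and 124. In Ifit1 and Ifit3 2 separate cores lay on the reverse strand, 104 and 85 bases before the start in Ifit1 and 156 and 122 in Ifit3.

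**Figure D1:**
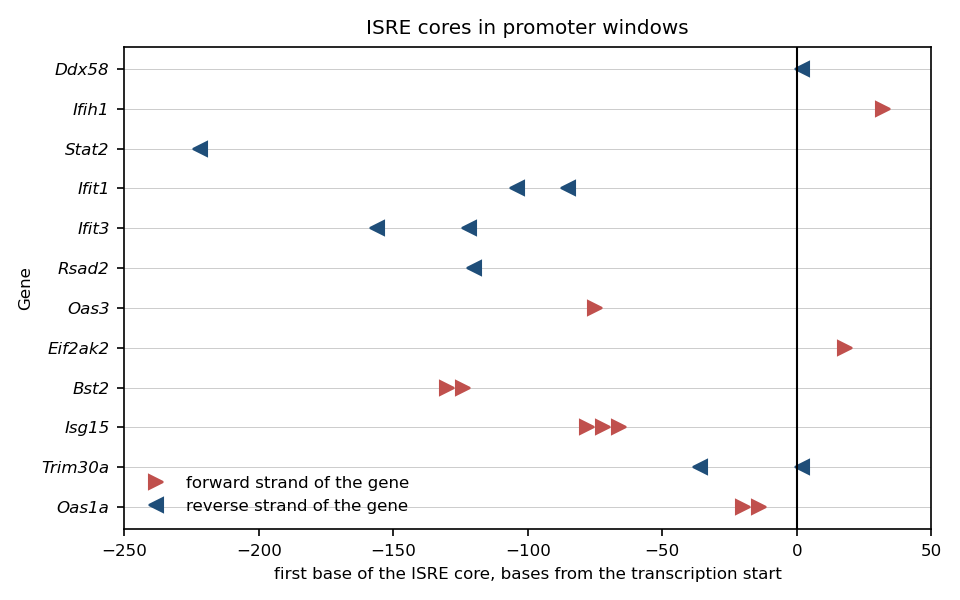
Position of each ISRE core (GAAA, any 2 bases, GAAA, on either strand, first base) in the promoter windows of the 12 genes that hold one, in bases from the transcription start; triangles point along the strand. The farthest core, in Stat2, lay 222 bases before the start and the last, in Ifih1, 32 bases after it; Trim30a has 2 start sites and a core near each.

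The 250 bases before the start are given for the member with the largest difference between genotypes, Rsad2 (chr12:26456453-26456702, minus strand), for its neighbour Cmpk2 (chr12:26468965-26469214, plus strand), and for Phf11d (chr14:59365491-59365740, minus strand), the member with the largest difference in the other direction.
Rsad2: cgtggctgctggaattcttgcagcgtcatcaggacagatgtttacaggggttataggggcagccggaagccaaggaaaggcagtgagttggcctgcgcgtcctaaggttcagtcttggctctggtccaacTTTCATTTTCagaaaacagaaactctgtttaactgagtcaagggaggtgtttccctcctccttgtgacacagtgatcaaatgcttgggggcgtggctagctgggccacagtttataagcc
Cmpk2: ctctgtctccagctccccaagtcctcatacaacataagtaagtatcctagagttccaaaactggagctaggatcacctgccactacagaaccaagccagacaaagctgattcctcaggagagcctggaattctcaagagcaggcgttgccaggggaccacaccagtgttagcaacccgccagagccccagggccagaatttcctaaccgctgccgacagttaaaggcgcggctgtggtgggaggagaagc
Phf11d: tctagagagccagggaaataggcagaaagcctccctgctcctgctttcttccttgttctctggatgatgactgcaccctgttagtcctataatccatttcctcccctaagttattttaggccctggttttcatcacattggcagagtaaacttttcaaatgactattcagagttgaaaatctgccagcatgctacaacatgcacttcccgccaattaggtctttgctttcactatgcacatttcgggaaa
Rsad2 held 1 core, 120 bases before its start, and neither Cmpk2 nor Phf11d held one in its window. The starts of Rsad2 and Cmpk2 lie 12.8 kb apart on opposite strands, so that the genes are transcribed away from each other.

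Some facts of the whole series bear on every value below. Array medians ran from 5.55 to 5.59 log2 on the eNOS-deficient and from 5.61 to 5.68 on the wild-type arrays. Precision is limited by the 3 arrays a group: the standard error of a difference had a median of 0.156 over all genes. Nothing in the labels ties each sample to its own animal, and p-values here therefore cover the spread between these samples alone, which may be technical. Nos3, which encodes eNOS, stood at 7.13, 7.39 and 7.27 on eNOS-deficient 11, 15 and 19 and at 7.99, 7.88 and 7.36 on wild type 2, 3 and 5. Its groups overlapped (limma adjusted p = 0.399), and where its probes lie relative to the targeted part is unknown here, so it gives no check of the labels. Of 8 smooth muscle and 10 endothelial markers all passed the filter, with list means of 9.48 to 10.05 and 7.97 to 8.74 over the arrays. Of 15 squamous epithelium genes, which mark no layer of the aorta, the mean was 8.24 on wild type 5 and 5.22 to 6.19 on the other arrays. Single genes of this list were raised on other wild-type arrays too. Krt4, with the largest difference, stood at 9.64 and 6.18 on wild type 2 and 3, against 4.41 to 5.16 in eNOS-deficient. The 3 Y-linked genes averaged 7.76, 4.71 and 8.0 on eNOS-deficient 11, 15 and 19 against 3.47 to 3.63 in wild type. Y-linked signal thus lay above wild type on every eNOS-deficient array. A difference in sex between the groups therefore cannot be told apart from genotype in any value below. The part of the squamous or the Y-linked signal in the results below was not tested.

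The interferon-stimulated genes as a group stood at nearly the same level in both genotypes. None of the 33 tested passed an adjusted p of 0.05 in limma, beside 0.0278% of all genes tested. At an unadjusted p under 0.05, 1 member was lower (Rsad2; 3.03% of members, beside 3.72% of all genes) and 2 were higher (Ifi27 and Phf11d; 6.06%, beside 7.86%). Both shares lie near the background, so the counts are not a result about the list. The median difference was -0.038 log2 over the members and 0.036 over all genes. Differences were above 0 for 13 members and below 0 for 20, whereas 56.6% of all genes were above 0. The split by sign depended on single arrays and on scaling. Without eNOS-deficient 11 it was 23 above and 10 below, and with arrays centred on their medians 19 above and 14 below. Centring shifted all genes alike: the median was then 0.027 for the members and 0.10 for all genes, so the members stayed below.

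The intervals show how large a change these arrays leave room for. For 32 of the 33 members the 95% interval of the difference lay within a factor of 2 in either direction, beside 90.2% of all genes, and for 14 it lay within a factor of 1.5, beside 56.9%. The exception to the first count was Rsad2. A difference that does not pass the test is not shown to be 0, and for Usp18, which had the largest standard error of the 33, the interval ran from -0.57 to 0.81.

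**Figure D2:**
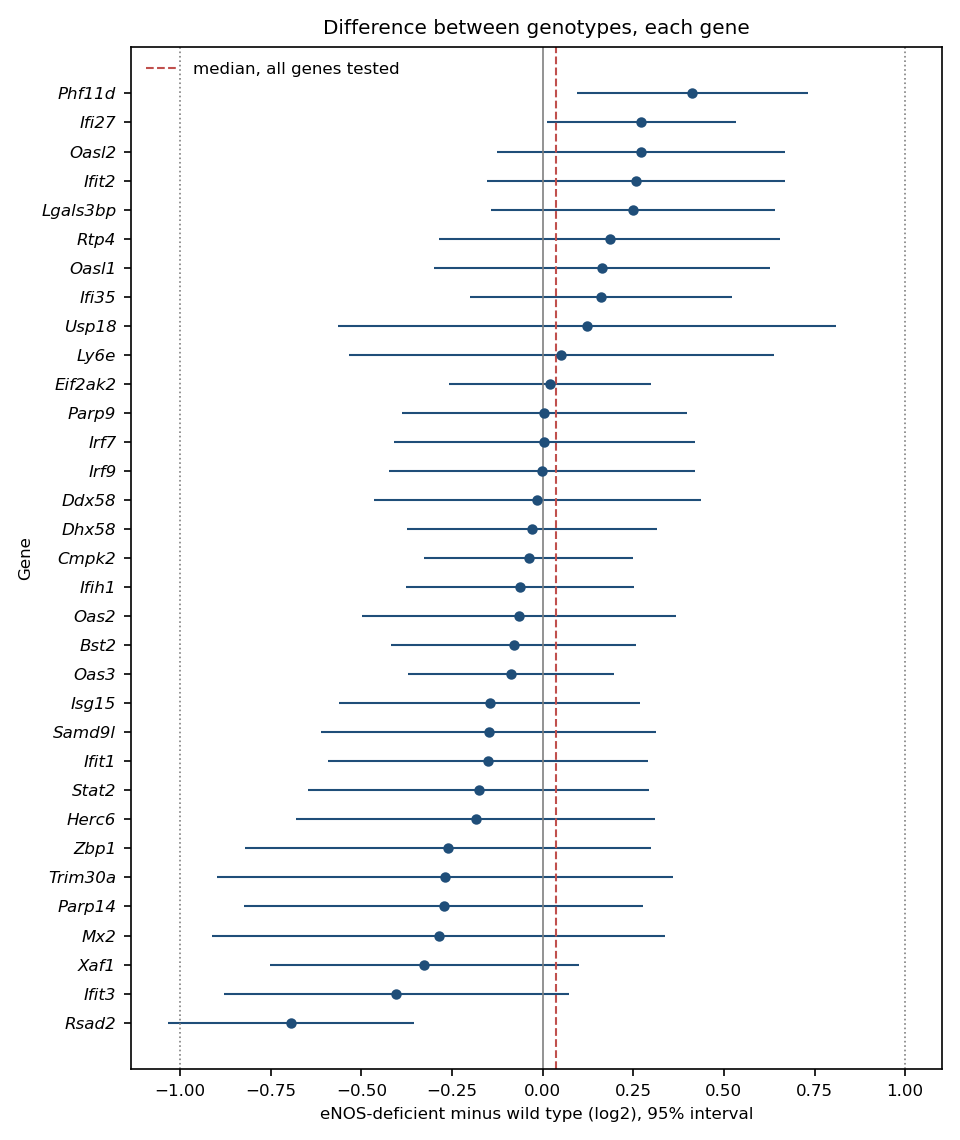
Difference in log2 signal (eNOS-deficient minus wild type) for each of the 33 tested interferon-stimulated genes, with its 95% interval from limma; the dashed line is the median of all genes tested (0.036) and the dotted lines mark a factor of 2. Rsad2 lies farthest to the left at -0.69 and Phf11d farthest to the right at 0.41.

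Rsad2 had the largest difference of the 33 members in the fit with all arrays. It encodes viperin, an enzyme that makes a chain-terminating nucleotide used against viral polymerases. Its signal was 6.24, 6.64 and 6.59 on eNOS-deficient 11, 15 and 19 and 7.08, 7.26 and 7.22 on wild type 2, 3 and 5. All 3 eNOS-deficient arrays were thus below all 3 wild-type arrays. The means were 6.49 ± 0.21 (SD, n = 3) and 7.19 ± 0.095, a difference of -0.69 (standard error 0.14, interval -1.03 to -0.36), or 1.62-fold lower. It did not pass over all genes (limma adjusted p = 0.218, unadjusted p = 0.00174), and an exact two-sided permutation test gave p = 0.1, the smallest that 3 against 3 can give. Groups apart in this direction were found for 6.48% of all genes tested, and Rsad2 was the only member among them. Without eNOS-deficient 11, where it was lowest, the difference was -0.57 and the limma adjusted p = 0.357. Ifit3 then differed more, by -0.61. Without eNOS-deficient 11 and wild type 5 together, Ifit3 (-0.64), Usp18 (0.60) and Mx2 (-0.58) all differed more in size than Rsad2 (-0.55). Usp18 was higher in eNOS-deficient aorta there, unlike the others. Over all alternatives Rsad2 stayed lower, by between 0.55 and 0.77 on the log2 scale, with a limma adjusted p from 0.0675 to 0.521.

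Cmpk2, the neighbour of Rsad2, encodes a mitochondrial nucleotide kinase that supplies the substrate of viperin. It measured 7.19, 7.35 and 7.28 on eNOS-deficient 11, 15 and 19 and 7.46, 7.22 and 7.26 on wild type 2, 3 and 5, with overlapping groups. Its difference was -0.04 (standard error 0.12, limma adjusted p = 0.934), with an interval of -0.33 to 0.25. Taken within each array, Rsad2 minus Cmpk2 was -0.95, -0.72 and -0.69 in eNOS-deficient and -0.38, 0.03 and -0.04 in wild-type aorta, so the gap between the neighbours was wider on all 3 eNOS-deficient arrays. This contrast, chosen after the values were seen as 1 of 4 between neighbouring members, had an exact permutation p of 0.1 and 0.2 adjusted over the 4.

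The IFIT genes lie together on chromosome 19 and encode proteins that bind foreign RNA ends or hold back translation. Ifit3 stood at 7.03, 6.62 and 6.23 on eNOS-deficient 11, 15 and 19, against 7.08, 7.06 and 6.96 in wild type. Array 11 thus reached the wild-type range while 15 and 19 lay below it, and the difference of -0.40 (standard error 0.20) did not pass (limma adjusted p = 0.490). Ifit1 ran the other way within the eNOS-deficient group, at 6.12, 6.43 and 6.68 against 6.68, 6.29 and 6.72, a difference of -0.15. Ifit2 measured 5.89, 5.78 and 6.07 against 5.77, 5.87 and 5.32. Its difference was 0.26, with wild type 5 lowest and the groups overlapping. The 3 IFIT genes thus shared neither a direction between genotypes nor an order of arrays. Within arrays, Ifit3 minus Ifit2 was lower in eNOS-deficient aorta by a mean of -0.66 (exact permutation p of 0.1, 0.2 adjusted over the 4 contrasts), and Ifit3 minus Ifit1 differed by -0.25 (exact permutation p of 0.6). Ifit3 has a near-identical copy, Ifit3b, so its probes may read both.

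**Figure D3:**
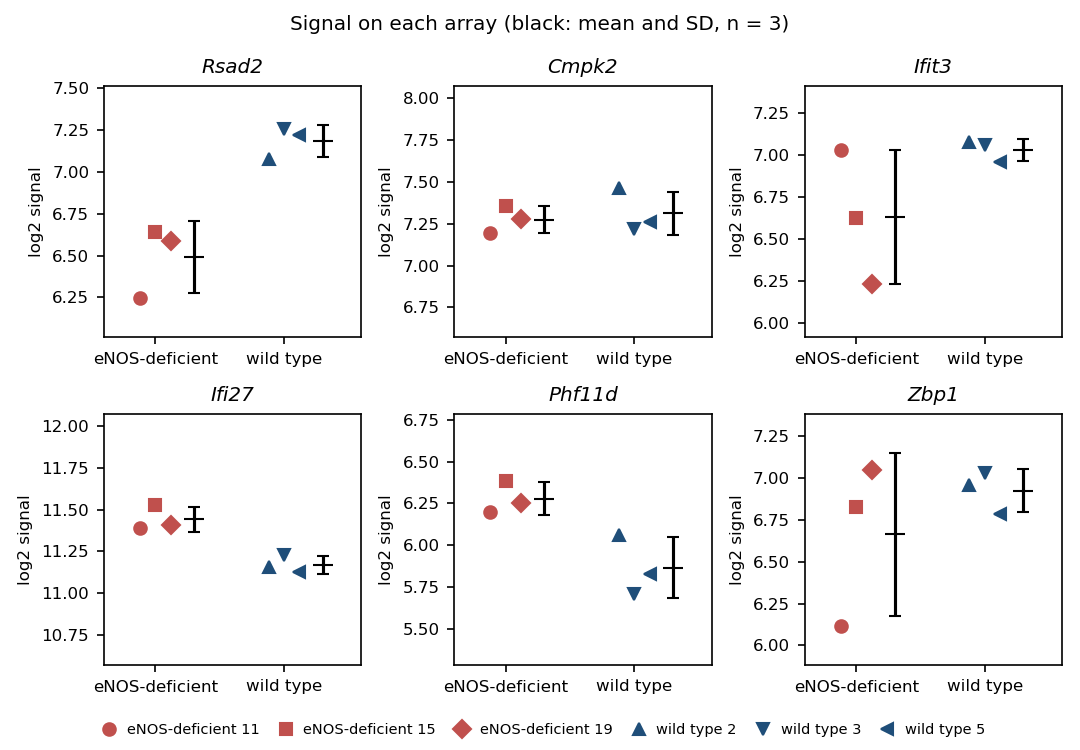
log2 signal of 6 interferon-stimulated genes on each array, eNOS-deficient in red and wild type in blue with a symbol for each array, and the mean and SD (n = 3) in black; every panel spans 1.5 log2 units. Rsad2 is lower and Ifi27 and Phf11d are higher on all eNOS-deficient arrays, Cmpk2 overlaps, and among the eNOS-deficient arrays 11 is the highest for Ifit3 and the lowest for Zbp1.

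Ifi27 and Phf11d were the members whose eNOS-deficient arrays all lay above wild type (6.06% of members, beside 13.1% of all genes). Ifi27, which encodes a small interferon-induced membrane protein, measured 11.39, 11.53 and 11.41 on eNOS-deficient 11, 15 and 19 and 11.16, 11.23 and 11.12 in wild type. It was 1.21-fold higher, by 0.27 log2 (standard error 0.11, limma adjusted p = 0.415). Phf11d, a PHD finger protein gene, measured 6.20, 6.39 and 6.25 against 6.06, 5.71 and 5.83. It was 1.33-fold higher, by 0.41 log2 (standard error 0.14, limma adjusted p = 0.343). Neither passed over all genes, and for both the exact permutation p was 0.1. In both genes eNOS-deficient 15 was the highest array. Ifi27 was no longer under an unadjusted p of 0.05 in limma when any 1 of the 6 arrays was left out, and Phf11d was not when eNOS-deficient 15 or wild type 3 was left out.

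The sensors of cytosolic nucleic acid did not differ beyond their spread. Ddx58 (RIG-I) and Ifih1 (MDA5) recognise viral RNA, Dhx58 (LGP2) tunes them, and Zbp1 binds left-handed nucleic acid. Zbp1 measured 6.12, 6.82 and 7.05 on eNOS-deficient 11, 15 and 19 and 6.96, 7.03 and 6.78 in the wild-type group. The difference was -0.26 (standard error 0.24, limma adjusted p = 0.719). Array 11 alone lay far below the others. Ifih1 stood at 6.95, 7.11 and 7.26 against 7.24, 7.24 and 7.03, and Dhx58 at 5.90, 6.24 and 6.22 against 6.29, 5.99 and 6.17. Both overlapped, with differences of -0.06 and -0.03, and Ddx58 differed by -0.01. All 4 sensors were lowest on eNOS-deficient 11.

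The transcription factors of the response overlapped between genotypes too. Stat2 and Irf9 are parts of the ISRE-binding complex, and Irf7 amplifies interferon production. Stat2 measured 6.81, 7.15 and 7.58 on eNOS-deficient 11, 15 and 19 and 7.41, 7.42 and 7.24 in the wild-type group. The difference was -0.18 (standard error 0.20, limma adjusted p = 0.780). Irf7 stood at 6.04, 6.27 and 6.65 against 6.28, 6.46 and 6.20, and Irf9 at 6.62, 7.09 and 7.23 against 6.87, 6.96 and 7.12. For each of the 3 the wild-type arrays lay between eNOS-deficient 11 and 19. The means of Irf7 and Irf9 were nearly equal between genotypes, 6.32 and 6.32 for Irf7 and 6.98 and 6.98 for Irf9, with intervals of -0.41 to 0.42 and -0.42 to 0.42.

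The OAS family encodes enzymes that answer double-stranded RNA by activating RNase L, and relatives of these enzymes (the OASL proteins). Oasl2 measured 7.13, 7.39 and 7.59 on eNOS-deficient 11, 15 and 19 and 6.97, 6.99 and 7.34 in the wild-type group. The difference was 0.27 (standard error 0.17, limma adjusted p = 0.574). Wild type 5 overlapped the eNOS-deficient range. Oasl1, its neighbour on chromosome 5, stood at 5.63, 5.98 and 6.13 against 5.62, 5.54 and 6.09. The array order was much the same for both: Oasl2 minus Oasl1 was between 1.26 and 1.5 on the 6 arrays, and its group means differed by 0.11 (exact permutation p of 0.2, 0.267 adjusted over the 4 contrasts). Oas3 measured 5.67, 5.56 and 5.61 against 5.84, 5.70 and 5.56, and Oas2 differed by -0.06. None of the 4 tested passed.

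Among the other antiviral effectors the largest difference with all arrays belonged to Mx2. The Mx family encodes dynamin-like GTPases, but RefSeq lists both Mx1 and Mx2 of the mouse as transcribed pseudogenes. Mx2 stood at 4.57, 4.62 and 4.62 on eNOS-deficient 11, 15 and 19 and at 4.97, 5.42 and 4.28 in wild type (difference -0.29, standard error 0.27, limma adjusted p = 0.725). Its values lie near the dim filter, and the wild-type arrays spread on both sides of the eNOS-deficient ones. The difference rested on single wild-type arrays: it was -0.023 without wild type 3 and -0.59 without wild type 5 (limma adjusted p = 0.979 and 0.187). Mx1, known to be disrupted in many laboratory strains, was under the filter at 3.33 to 3.92 on all 6 arrays. Rtp4, which encodes a receptor-transporting protein that restrains flaviviruses, measured 6.47, 7.10 and 7.03 against 6.84, 6.45 and 6.76 (difference 0.18). Samd9l, an antiviral and growth-restraining gene, measured 6.23, 6.62 and 6.99 against 6.84, 6.79 and 6.66 (difference -0.15). Both overlapped between groups. Eif2ak2, the RNA-activated kinase PKR that stops translation, differed by 0.02, Bst2 (tetherin, which holds budding virus at the surface) by -0.08, and Ly6e, a surface protein that limits coronavirus entry, by 0.05. Ly6e ran from 9.69 to 10.72 among the eNOS-deficient arrays while its wild-type arrays lay between 10.19 and 10.29.

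ISG15 is a ubiquitin-like protein that is attached to other proteins by HERC6 in the mouse and removed by USP18, which also restrains the interferon receptor. Isg15 measured 4.42, 4.17 and 4.62 on eNOS-deficient 11, 15 and 19 and 4.49, 4.33 and 4.82 in wild type (difference -0.15, limma adjusted p = 0.798). These values straddle the dim filter. Usp18 stood at 6.83, 7.77 and 7.36 against 7.10, 6.82 and 7.67 (difference 0.12), and Herc6 at 6.77, 7.12 and 7.52 against 7.38, 7.49 and 7.09 (difference -0.19). For all 3 genes each group spread over more than the difference between groups.

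Parp9 and Parp14 encode ADP-ribosyl transferases that tune interferon signalling, and Trim30a a ubiquitin ligase that restrains Toll-like receptor signalling. Parp14 measured 6.79, 7.36 and 7.69 on eNOS-deficient 11, 15 and 19 and 7.76, 7.49 and 7.40 in wild type (difference -0.27, standard error 0.23, limma adjusted p = 0.699). Trim30a stood at 5.26, 5.41 and 6.29 against 6.0, 6.02 and 5.75 (difference -0.27), and Parp9 at 6.88, 6.87 and 7.08 against 6.93, 7.22 and 6.66. Groups overlapped for each, and for Parp14 and Trim30a array 11 was lowest. Of the remaining members, Xaf1, which antagonises an inhibitor of apoptosis, measured 6.17, 6.74 and 6.59 against 7.04, 6.78 and 6.68 (difference -0.33, limma adjusted p = 0.525). Lgals3bp, a secreted galectin ligand, differed by 0.25 and its second, dimmer probe set by 0.28. Ifi35, which forms a complex with Nmi, differed by 0.16, but by -0.14 on a second probe set with a mean of 4.99 against 7.62. The other members had 1 such probe set each.

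**Figure D4:**
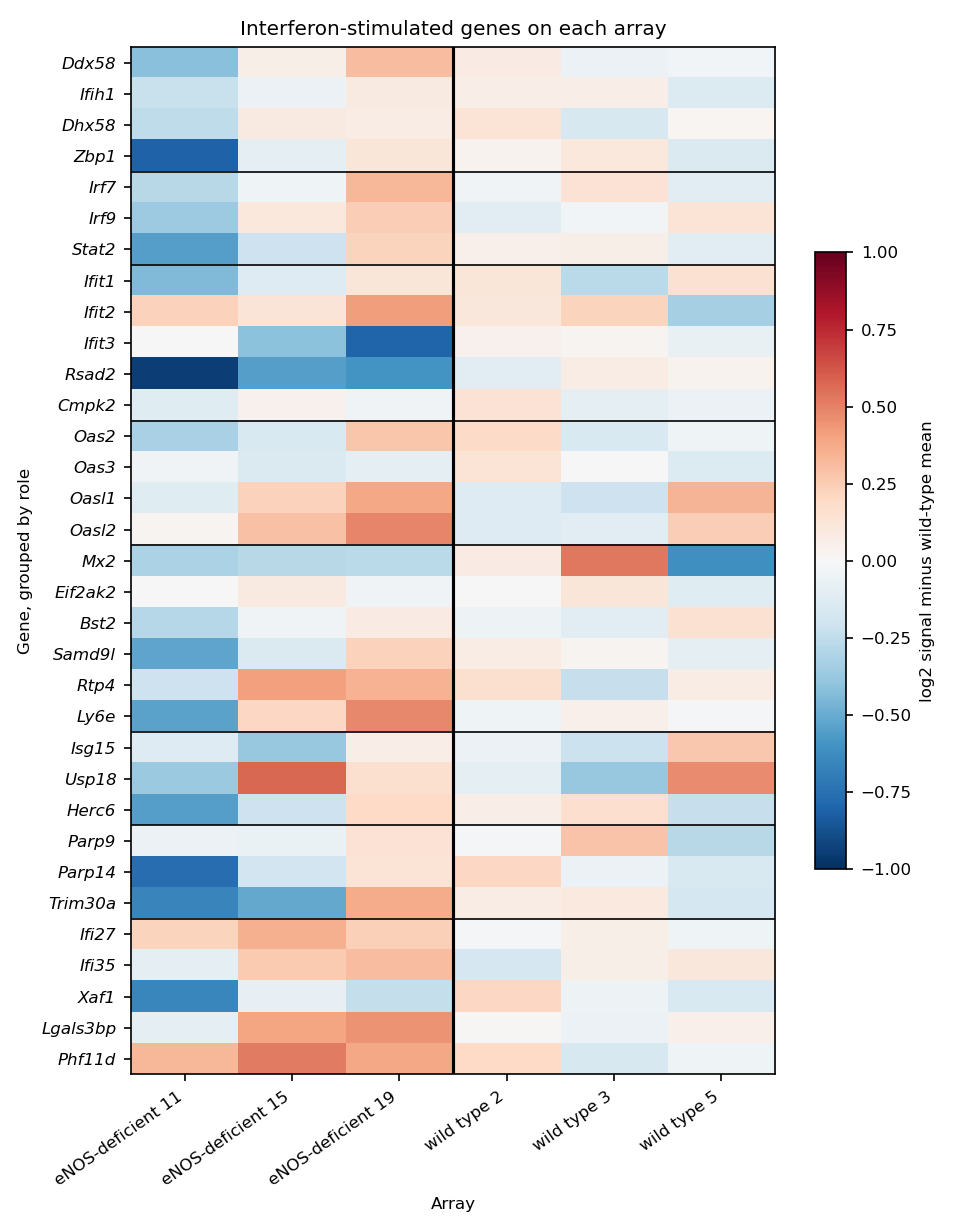
log2 signal of the 33 tested interferon-stimulated genes on each array, as the difference from the gene's wild-type mean (colour from -1 to 1), with genes grouped by role between the horizontal lines and genotypes split by the vertical line. The column of eNOS-deficient 11 is mostly blue and that of eNOS-deficient 19 mostly red, with Rsad2 and Ifit3 blue on 19 too.

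Most members spread more among the eNOS-deficient arrays than among the wild-type arrays. For 29 of 33 the range over the 3 eNOS-deficient arrays exceeded the difference between group means (87.9%), as it did for most genes (72.7% of all). For 24 of 33 (72.7%, beside 41.4%) it exceeded the range over the wild-type arrays. Of the 33, 19 were lowest of all 6 arrays on eNOS-deficient 11 (57.6%, beside 15.4% of all genes), and 16 were highest of all 6 on eNOS-deficient 19 (48.5%, beside 19.3%). None was highest on eNOS-deficient 11, which held the highest value for 20.5% of all genes, and 2 were lowest on eNOS-deficient 15 (6.06%, beside 10.4%). Within the eNOS-deficient group alone, array 11 was lowest for 27 (81.8%, beside 34.3%), and the exceptions were Ifit2, Ifit3, Oas3, Eif2ak2, Isg15 and Parp9. For 19 members the signal was lowest on array 11, higher on 15 and highest on 19 (57.6%, beside 21.4%). Ifit3 and Oas3 were the members with array 11 highest of the 3. The mean over the 33 genes was 6.67, 6.96 and 7.09 on eNOS-deficient 11, 15 and 19 and 6.99, 6.95 and 6.92 on wild type 2, 3 and 5, so the wild-type arrays lay between eNOS-deficient 11 and 19. These counts describe single arrays that are replicates of one group.

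Markers of lymphocytes moved with the same arrays. Against the wild-type mean, 7 B cell markers averaged -2.36 on eNOS-deficient 11 and 0.056 and 0.25 on 15 and 19, and 7 T and NK cell markers -1.43, 0.55 and 0.91. The interferon-stimulated genes lay at -0.28, 0.0023 and 0.14. Endothelial markers ran in the same order over the eNOS-deficient arrays, at -0.27, -0.015 and 0.078, but were lowest of all on wild type 5 (-0.48). Of 8 listed B cell markers 7 were tested, with list means from 5.81 to 8.42 in eNOS-deficient and 7.91 to 8.50 in wild-type aorta, and of 10 listed T and NK cell markers 7, from 5.50 to 7.83 and 6.83 to 7.10, with Klrb1c under the filter. Of plasmacytoid dendritic cell genes, the cells that release most type I interferon, 6 averaged -0.52, 0.051 and 0.27, with Klk1 under the filter. They did not move together on array 11: Ly6d and Spib, which B cells also express, stood at 6.11 and 5.37 there, against 7.54 to 9.67 and 6.96 to 7.64 in wild type. Siglech, a defining marker of these dendritic cells, stood at 6.37 there, within its wild-type range of 6.14 to 6.4. On arrays 15 and 19 it lay above that range, at 6.89 and 7.11 (difference 0.56, limma adjusted p = 0.376). Of the 6 genes, 2 had a higher mean in eNOS-deficient aorta and 4 a lower one. On array 11, Ccr9 at 5.02 lay within its wild-type range of 5.01 to 5.2, and Pacsin1 at 6.06 just below its range of 6.09 to 6.32. Cox6a2 stood at 11.43, above its range of 9.69 to 11.12. Its arrays ran in the same order as those of the smooth muscle marker Des (11.56 on array 11, 9.76 to 11.3 in wild type). Which cells Cox6a2 reads here is therefore uncertain. Macrophage markers lay above wild type on all 3 eNOS-deficient arrays, 11 included, by 0.70, 0.71 and 1.05 on average. All 10 had a mean above wild type, beside 56.6% of all genes. At an unadjusted p under 0.05 in limma 9 of the 10 were higher, beside 7.86% of all genes. Groups were apart in this direction for 9, beside 13.1% of all genes. None passed over all genes (smallest limma adjusted p = 0.129). Neutrophil markers averaged -0.19, 0.15 and 0.69, with S100a8, Ly6g and Camp under the filter, and monocyte markers -0.011, 0.15 and 0.39. The monocyte markers did not move together on array 11. Ace stood at 9.26 there, above its wild-type range of 8.05 to 8.13, and Plac8 at 5.51, below its range of 6.21 to 7.14. Ace had the largest difference of the 8, 1.14, beside a median of 0.072. The mean near 0 on array 11 therefore does not show that monocyte signal was unchanged there. Fewer cells of a type and less RNA per cell cannot be told apart in bulk tissue, and the part of these cells in the results was not tested. The wild-type arrays spread less for B cell markers, between -0.25 and 0.34, and for the interferon-stimulated genes, between -0.031 and 0.038. For endothelial markers they spread more, between -0.48 and 0.29.

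**Figure D5:**
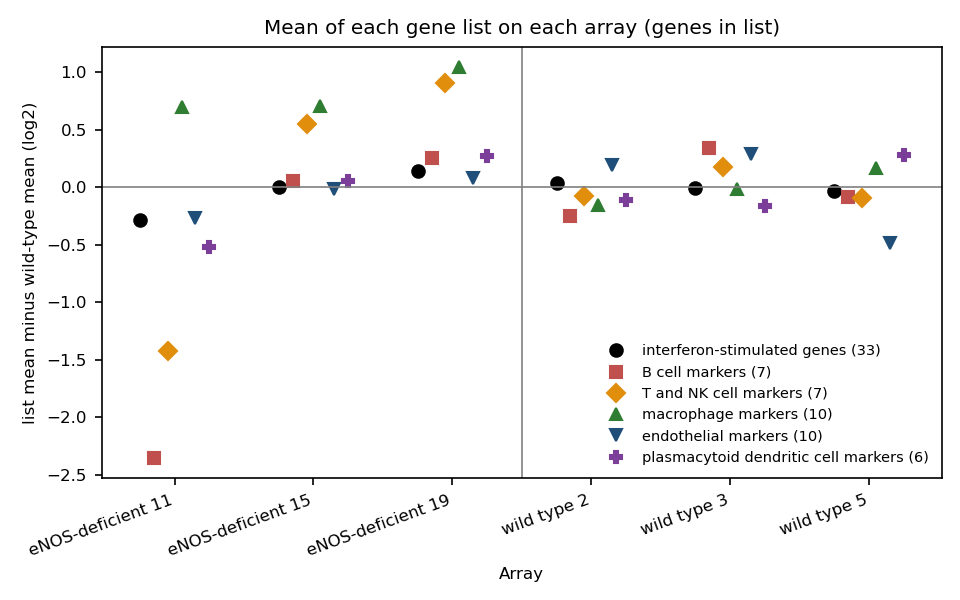
Mean log2 signal of 6 gene lists on each array, as the difference from that list's wild-type mean, with the number of genes in brackets. The interferon-stimulated genes run from -0.28 on eNOS-deficient 11 to 0.14 on 19, B cell and T and NK cell markers are lowest on 11, and macrophage markers are above 0 on all 3 eNOS-deficient arrays.

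Leaving out the arrays that stood apart did not bring members past the test. Without eNOS-deficient 11 and wild type 5 together, 0 members passed an adjusted p of 0.05 in limma, 3 were lower (Ifit3, Rsad2 and Mx2) and 7 higher (Oasl1, Oasl2, Rtp4, Usp18, Ifi35, Lgals3bp and Phf11d) at an unadjusted p under 0.05, beside 6.2% and 9.47% of all genes. The median was then 0.044 for the members and 0.0069 for all genes. Without eNOS-deficient 11 alone, Ifit3 and Rsad2 were lower and Lgals3bp and Phf11d higher at that threshold, beside 3.11% and 6.25% of all genes. The median was then 0.036 for the members and 0.041 for all genes. Without eNOS-deficient 19 the median was -0.16, and Rsad2 and Trim30a were lower and Phf11d higher, beside 2.75% and 6.4% of all genes. Rsad2 was on the lower side at an unadjusted p under 0.05 in each of these fits.

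The rest of the pathway was read from 4 lists of 110 further genes, of which 87 could be tested. None passed an adjusted p of 0.05 in limma, 3 were lower and 5 higher at an unadjusted p under 0.05 (beside 3.72% and 7.86% of all genes), and the median difference was -0.014. Of 18 interferon genes 16 had a probe set of their own and 7 of those were under the dim filter, among them Ifnb1, which encodes interferon beta. Of the 9 tested, Ifna14 measured 5.65 ± 0.10 against 6.03 ± 0.19 (SD, n = 3 each), a difference of -0.38 (limma adjusted p = 0.384). Ifna1 differed by -0.28 and Ifnl2 by -0.27, and in all 3 genes the eNOS-deficient arrays lay below every wild-type array, as for 6.48% of all genes. Interferon alpha genes are near-identical copies of each other, as are the interferon lambda genes, so what their probes read is uncertain.

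The type I interferon receptor genes overlapped between genotypes. Ifnar1 measured 8.44, 8.55 and 8.59 on eNOS-deficient 11, 15 and 19 and 8.66, 8.69 and 8.33 in wild type (difference -0.03, limma adjusted p = 0.960). Ifnar2 stood at 10.52, 10.76 and 10.67 against 10.45, 10.55 and 10.26 (difference 0.23, limma adjusted p = 0.547). Both overlapped between groups. The receptor kinases Jak1 and Tyk2 differed by 0.18 and -0.16. Of the 14 receptor and signalling genes tested, 2 were higher at an unadjusted p under 0.05, beside 7.86% of all genes. Il10rb, a subunit shared by the interferon lambda and interleukin 10 receptors, measured 8.77 ± 0.16 against 8.41 ± 0.16, and Ptpn2, a phosphatase that dampens JAK and STAT signalling, 7.66 ± 0.11 against 7.34 ± 0.15 (limma adjusted p = 0.407 and 0.418). Ifngr1, a subunit of the interferon gamma receptor, differed by 0.37 (limma adjusted p = 0.514).

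Among 20 genes that sense nucleic acid or induce interferon, Tlr7 and Ifi204 were higher at an unadjusted p under 0.05, beside 7.86% of all genes. Tlr7, the endosomal receptor for single-stranded RNA, measured 6.23, 6.59 and 6.84 on eNOS-deficient 11, 15 and 19 and 5.64, 5.87 and 6.25 in wild type (difference 0.63, limma adjusted p = 0.357). Ifi204, a DNA-binding gene that myeloid cells express, measured 6.01, 6.01 and 6.58 against 5.37, 5.72 and 5.79 (difference 0.57, limma adjusted p = 0.369). The Toll-like receptor adaptor Myd88 differed by 0.37 (limma adjusted p = 0.489). Macrophage markers were higher on the same arrays (list means of 8.37 to 8.72 against 7.52 to 7.83), and their part in these values was not tested. Of 44 further interferon-induced genes, 2 were lower and 1 higher at that threshold, beside 3.72% and 7.86% of all genes. Gbp3, a guanylate-binding protein gene, differed by -0.47 (limma adjusted p = 0.341), with all eNOS-deficient arrays below wild type, as for 6.48% of all genes. Oas1g, a copy of Oas1a, differed by -0.51 (limma adjusted p = 0.430). Ifi205, a relative of Ifi204, differed by 0.72 (limma adjusted p = 0.394). The further genes followed the same arrays as the members, with means of -0.43, 0.083 and 0.24 from wild type on eNOS-deficient 11, 15 and 19.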

How the data were processed

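Aortas of 3 eNOS-deficient and 3 wild-type samples gave total RNA, of which 300 ng was labelled for 1 array each (per the labels' protocols). The deposited values are log2 signals that the authors made by RMA in Affymetrix Expression Console 1.3.1, per the submitters' processing notes, and were used as deposited. RMA brings the distributions of arrays close to each other, so a change common to most genes may be hidden. The arrays were still not fully equal: medians were 5.55 to 5.59 log2 in eNOS-deficient and 5.61 to 5.68 in wild type. Genome build and probe positions are unknown here.

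Probe sets annotated to a single gene (23521 of 41345) were kept, with the brightest per gene and a mean of at least 4.38 log2. The genotypes were compared in R 4.3.3 by the moderated two-sided test of limma 3.58.1, fitted without an intensity trend, with Benjamini-Hochberg adjustment over 18007 genes. Single values were compared by exact permutation. Genes and lists were chosen with earlier results of these data known. Values on every array were given for the 3 members of each role group with the smallest p, with Cmpk2 and Ifit1 added after their values were seen. Ifnar1, Ifnar2, Jak1, Tyk2 and up to 3 further genes of each pathway list, by smallest p, were named with their differences. Alternatives changed the filter, the choice of probe set, the variance model, array weights, centring, normalization and the ISRE form, and left out each array in turn and eNOS-deficient 11 with wild type 5. Motifs were searched in RefSeq windows. On simulated data for 18007 genes the fit recovered 10% of changes of 1.5-fold, 78% of 2-fold and 100% of 4-fold, with 8 false calls. The simulated noise was independent and even over the arrays, with no array standing apart. The planted changes, up to 8-fold, also ease the adjustment. These shares may therefore be too high for the real arrays. Plots used matplotlib 3.10.9 in Python 3.11.15.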

Additional observations from a re-analysis of the deposited data

How the results depend on the processing

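The 14 alternative fits left 0 members past an adjusted p of 0.05 in limma. Rsad2 was lower with an unadjusted p under 0.05 in all 14. With array weights, 3 members were lower and 4 higher at that threshold, beside 7.22% and 11.8% of all genes. After repeated quantile normalization 1 was higher, beside 6.19%. Without eNOS-deficient 11 and wild type 5 together, 3 were lower and 7 higher, beside 6.2% and 9.47%, and groups did not overlap for 16 of 33 members, beside 48% of all genes with 2 arrays a group. Leaving out each array in turn gave 1 to 2 members lower, 0 to 2 higher and 3 to 9 without overlap, with a median difference of -0.16 to 0.036. Over all genes these fits gave 2.38 to 5.93% lower, 4.96 to 8.93% higher and 26.4 to 35.3% without overlap. The count of 0 came without eNOS-deficient 15 and without wild type 3. The longer ISRE form was found in 23.1% of the members' promoters against 46.2% for the core. Of single members, 16 changed sign in at least 1 alternative, none of them with a size over 0.26 log2 in the fit with all arrays, and 17 kept their sign throughout, Rsad2, Ifit3, Ifi27 and Phf11d among them. Centring arrays on their medians moved the median of all genes from 0.036 to 0.10. No paired analysis was possible because the groups share no replicate number. Mx1, Mx2 and Isg15 lie at or near the dim filter, which limits what their values can show.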
